A study of Mus musculus and Homo sapiens with 19 samples.

Results

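This comparison set Bend3 endothelial cells that had been co-cultured with 4T1 tumour cells against Bend3 endothelial cells co-cultured with EMT6.5 tumour cells. It rests on 2 RNA sequencing libraries of the 19 in the series, 1 per partner, chosen by their culture label and compared directly with each other. Bend3 is a mouse endothelial cell line, and 4T1 and EMT6.5 are mouse breast cancer cell lines; the labels give no transgene, drug or shRNA for any of these cells. Tumour and endothelial cells of each co-culture were separated by fluorescence-activated sorting before RNA extraction, so each co-culture also gave a library of its sorted tumour cells. A Bend3 monoculture library gives the level without a partner. The series as a whole concerns PHGDH, the first enzyme of serine synthesis, in breast cancer cells, and its remaining libraries are tumour monocultures and 4T1 and MDA-MB-231 cells with altered PHGDH or their controls. With 1 library per group no difference below has a replicate check, and no test was made: every interval covers counting error only, and a difference between partners cannot be told apart from a difference between 2 dishes, sorts or libraries. Bend3 is 1 cell line, so nothing here samples different endothelial cells.

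Endothelial cells answer soluble and contact signals from neighbouring cells, and interferon is a strong signal of this kind. Type I interferons bind the receptor Ifnar1 and Ifnar2, the kinases Jak1 and Tyk2 phosphorylate transcription factors such as Stat2, which acts with Irf9 in a complex that binds interferon-stimulated response elements in promoters. The genes switched on in this way include the Ifit, Oas, Mx and Gbp antiviral families, Isg15 and its protease Usp18, and the factor Irf7, which amplifies the response.

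Bend3 cells with 4T1 held more RNA of interferon-stimulated genes than Bend3 cells with EMT6.5. Of 41 genes on the interferon-stimulated list, 38 reached a mean of 5 CPM in the 2 libraries (CPM, counts per 1 M assigned counts after trimmed-mean scaling), and 28 of these were at least 2-fold higher with 4T1 while 0 were 2-fold lower. Over all 9973 genes at this level, 217, or 2.18%, were 2-fold higher and 126, or 1.26%, were 2-fold lower. Of the 28, Oas2, Oas1a, Oasl1 and Cmpk2 reached this level only through the library with 4T1. The median ratio was 2.90 over the list and 1.00 over all genes. Endothelial identity genes had 0 of 34 tested members past 2-fold, and the enzymes of serine synthesis had none past 2-fold either.

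Promoter sequences are shown for 5 of the genes with the highest ratios, because the response element of the interferon pathway is spelled out in them. Each is a RefSeq promoter window on GRCm38.p6, from 250 bases before to 50 bases after the annotated transcription start, printed 5′ to 3′ on the strand of the gene. Capitals mark the motif searched, GAAA, any 2 bases, then GAAA again, on either strand, so that on the other strand it reads TTTC, any 2 bases, TTTC; matches that overlap one another are marked as 1 run, and overlap with other motifs was not examined. The windows are chr19:34640639-34640938 on the plus strand for Ifit1, chr19:34583279-34583578 plus for Ifit3, chr19:34607707-34608006 plus for Ifit3b, chr4:156200769-156201068 minus for Isg15 and chr3:142559794-142560093 plus for Gbp3.
Ifit1: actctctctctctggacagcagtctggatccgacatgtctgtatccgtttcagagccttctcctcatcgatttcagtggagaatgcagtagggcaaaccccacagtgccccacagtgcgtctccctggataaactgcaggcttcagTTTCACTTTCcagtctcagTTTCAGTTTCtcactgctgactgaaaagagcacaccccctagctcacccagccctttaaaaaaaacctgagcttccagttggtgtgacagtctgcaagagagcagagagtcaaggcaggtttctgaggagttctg
Ifit3: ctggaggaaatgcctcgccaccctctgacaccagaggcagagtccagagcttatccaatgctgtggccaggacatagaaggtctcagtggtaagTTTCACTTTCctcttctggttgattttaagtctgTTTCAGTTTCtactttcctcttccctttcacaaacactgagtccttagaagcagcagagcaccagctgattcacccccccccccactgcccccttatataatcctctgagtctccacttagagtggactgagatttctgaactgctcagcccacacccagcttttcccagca
Ifit3b: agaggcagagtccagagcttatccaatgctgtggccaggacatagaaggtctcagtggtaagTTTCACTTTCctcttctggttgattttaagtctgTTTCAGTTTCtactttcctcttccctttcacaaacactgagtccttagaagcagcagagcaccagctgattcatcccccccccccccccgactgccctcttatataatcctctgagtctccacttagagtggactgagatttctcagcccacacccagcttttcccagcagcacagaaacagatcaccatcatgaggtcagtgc
Isg15: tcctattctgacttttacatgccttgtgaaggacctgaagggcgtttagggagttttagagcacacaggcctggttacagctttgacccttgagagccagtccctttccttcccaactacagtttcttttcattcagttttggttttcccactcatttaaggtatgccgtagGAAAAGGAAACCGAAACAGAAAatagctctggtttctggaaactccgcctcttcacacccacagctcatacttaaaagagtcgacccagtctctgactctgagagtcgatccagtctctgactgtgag
Gbp3: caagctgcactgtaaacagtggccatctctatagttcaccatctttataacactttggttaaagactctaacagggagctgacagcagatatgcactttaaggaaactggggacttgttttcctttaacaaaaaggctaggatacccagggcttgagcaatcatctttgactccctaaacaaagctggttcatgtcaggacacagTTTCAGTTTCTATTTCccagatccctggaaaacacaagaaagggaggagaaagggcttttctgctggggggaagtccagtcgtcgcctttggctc
Ifit1 held 2 matches, which began at positions -104 and -85 from the start. Isg15 held 3 overlapping matches that began at positions -78, -72 and -66, in 1 run of capitals. Ifit3 and Ifit3b each held 2 matches, and their windows shared an unbroken run of 169 bases; the genes are close copies, and reads that fit both are left out of the counts. Over all 32851 RefSeq windows the motif was present in 3.44%, and over the 7725 tested genes with a window in 2.99%. It was present in 15 of the 27 interferon-stimulated genes with a window. These were 12 of the 20 that were 2-fold higher and 3 of the 7 that were under 2-fold. The motif was present in 31 of the 162 genes with a window that were 2-fold higher with 4T1, or 19.1%. Of the 70 genes with a window that were 2-fold lower, 2 held it. Among the genes 2-fold higher that are not on the interferon list the motif stood in 19 of 142, or 13.4%. The windows of Irf7, Oasl2, Ifi44, Cmpk2 and Ifit2 held no match, which says only that these letters were absent from these 300 bases. A match describes the sequence and was not tested as a binding site.

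The Bend3 library with 4T1 held 5.87 M assigned counts and that with EMT6.5 held 5.75 M, and 3 counts, the floor used for a gene seen 0 times, equalled 0.511 and 0.521 CPM. Of the entries in the count files 39.8% with 4T1 and 38.9% with EMT6.5 were assigned to genes; most others had aligned to several places and were not counted, so closely related genes are undercounted and uncertain. Mitochondrial genes took 8.29% of counts with 4T1 and 6.40% with EMT6.5; their part in any result below was not tested. All 10 endothelial markers, Pecam1, Cdh5, Kdr, Tie1, Tek, Emcn, Esam, Cldn5, Eng and Flt1, were at 90.7 CPM or more with 4T1 and at 103 CPM or more with EMT6.5. Their summed level was 9107 CPM with 4T1 and 9747 CPM with EMT6.5, against 444 CPM in sorted 4T1 and 135 CPM in sorted EMT6.5, so both libraries were endothelial by their markers. Epithelial markers summed to 46.5 CPM with 4T1 and 7.22 CPM with EMT6.5 over 10 genes, with Krt5 and Krt14 at 0 counts in both. Of 6 leukocyte markers Ptprc and Csf1r were at 0 counts in both, and nearly all of their sum of 284 CPM with 4T1 and 223 CPM with EMT6.5 came from Cd68, which stood at 396 CPM in Bend3 alone.

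RNA carried over from the tumour partner was bounded with genes that the sorted partner held at 50 CPM or more and that Bend3 alone held at 0.5 CPM or less. In the 4T1 co-culture 96 such genes had a median level in Bend3 of 1.71% of their level in the sorted tumour cells, a 90th percentile of 3.31% and a maximum of 6.91%. In the EMT6.5 co-culture 117 such genes had a median of 1.33%, a 90th percentile of 3.04% and a maximum of 6.79%. The maxima were set by Krt7, a keratin of simple epithelia, in the 4T1 co-culture and by Tmeff1 in the EMT6.5 co-culture. The 90th percentile, called the carry-over bound, was subtracted from the higher library of each gene. A ratio that would have crossed 1 was set to 1. This left 181 of the 217 higher and 108 of the 126 lower genes past 2-fold. Some marker genes, such as Krt7 and Tmeff1, lie above this bound, so it is not a limit for every gene. A gene that Bend3 itself switches on in co-culture counts as carried over under this rule, so the shares are upper estimates in that respect.

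**Figure D1:**
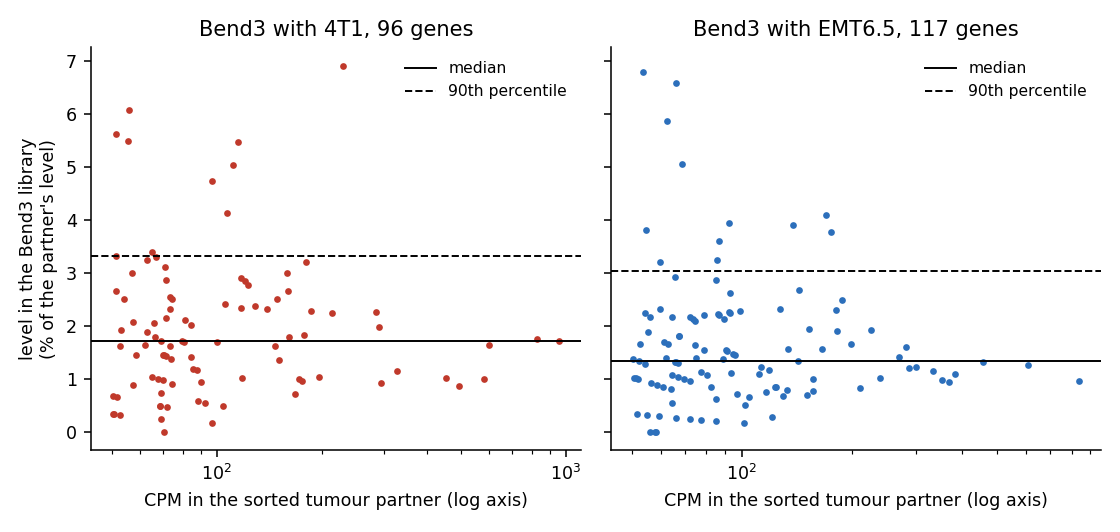
Level of each carried-over marker gene in the Bend3 library as a percentage of its level in the sorted tumour partner (vertical axis), against its CPM in that partner (log horizontal axis), for Bend3 with 4T1 on the left and Bend3 with EMT6.5 on the right. The medians (solid lines) lie at 1.71% and 1.33% and the 90th percentiles (dashed lines) at 3.31% and 3.04%, and no gene exceeds 6.91%.

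The genes furthest apart between the partners were interferon-stimulated ones. Ranked by the bound of the counting interval nearest to 1, among named genes at 10 CPM or more that stayed at least 1.5-fold apart after the carry-over bound, 12 of the 15 highest were on the interferon-stimulated list and 0 of the 15 lowest were. The other 3 of the 15 were Apol9a, Apol9b and Ifi27l2b. Of all 70 genes at 20 CPM or more that were 2-fold higher, 23 were on the list, and 1.01% of the 6941 genes at that level were 2-fold higher.

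**Figure D2:**
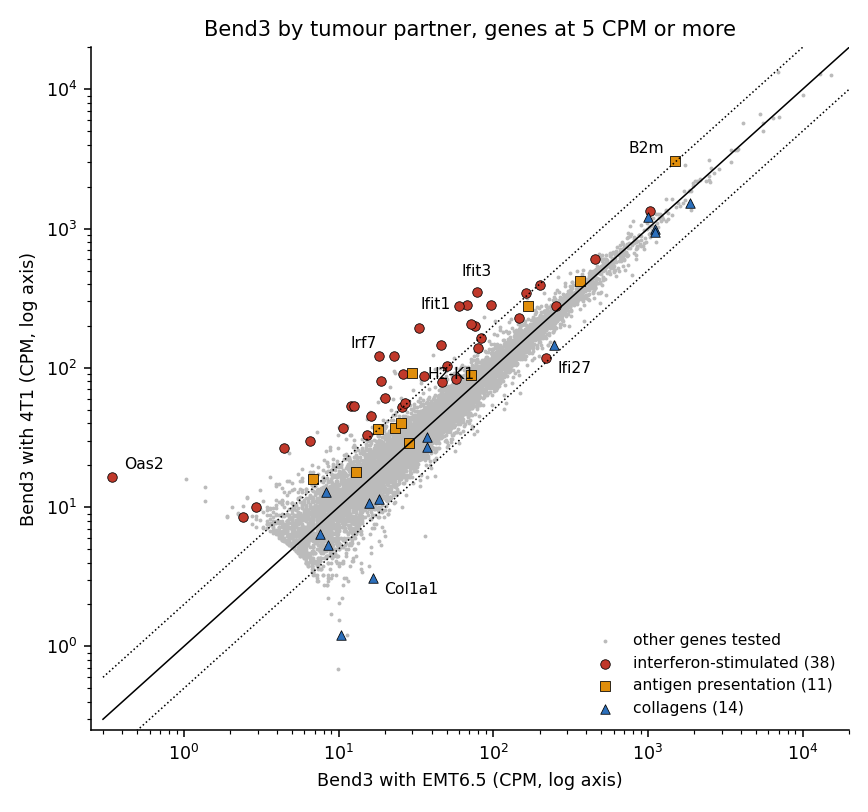
CPM of each of the 9973 genes tested in Bend3 with 4T1 (vertical, log axis) against Bend3 with EMT6.5 (horizontal, log axis), 1 library each, with the line of equality and dotted lines at 2-fold. The interferon-stimulated genes (red) lie above equality except Ifi27, the antigen presentation genes (orange) lie on or above it, and Col1a1 and Col1a2 lie furthest below among the collagens (blue).

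Among the effector families, the 4 tested Ifit genes, which bind viral RNA, were each more than 4-fold higher with 4T1. Ifit1 stood at 281 CPM with 4T1 and 67.7 CPM with EMT6.5, a ratio of 4.16 (95% counting interval 3.72 to 4.65), and at 105 CPM in Bend3 alone. Ifit3 stood at 353 CPM with 4T1 and 78.2 CPM with EMT6.5, a ratio of 4.51 (4.07 to 5.004). Ifit3b was at 122 and 18.2 CPM with 4T1 and with EMT6.5, a ratio of 6.69 (5.45 to 8.29), and Ifit2 at 80.4 and 18.9 CPM, a ratio of 4.25 (3.45 to 5.29). The 4 genes lie on chromosome 19 of GRCm38 with no other tested gene between them, from 34550694, where Ifit2 starts, to 34650009, where Ifit1 ends. The nearest tested neighbours differed less. Lipa, a lysosomal lipase, had a ratio of 0.907 (0.817 to 1.01) on one side, and Ch25h beyond it of 1.38 (1.16 to 1.64). Pank1, of coenzyme A synthesis, had a ratio of 1.51 (1.01 to 2.28) on the other, and Kif20b beyond it of 2.06 (1.67 to 2.54). The sorted tumour cells held little of the Ifit RNAs. Ifit1 was at 23.2 CPM in 4T1 and 13.0 CPM in EMT6.5, and Ifit3 at 3.28 CPM in 4T1 and 4.05 CPM in EMT6.5.

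Among the Oas enzymes, which make the messenger that activates an antiviral ribonuclease, Oas2 had the highest ratio of the tested list. It rests on 2 counts with EMT6.5. Oas2, Oas1a and Oasl1 reached a mean of 5 CPM only through the library with 4T1. Oas2 (ENSMUSG00000032690.16, chromosome 5) had 96 counts with 4T1 and 2 counts with EMT6.5, that is 16.5 and 0.344 CPM, a ratio of 48.1 with a wide counting interval of 13.0 to 403. Bend3 alone held 4.39 CPM of Oas2, between these levels. Oasl2 stood at 194 CPM with 4T1 and 33.2 CPM with EMT6.5, a ratio of 5.84 (5.01 to 6.84), and sorted 4T1 cells held 97.0 CPM of it, which lowers the ratio to 5.74 after the carry-over bound. Oas1a, at 49 and 14 counts with 4T1 and with EMT6.5, had a ratio of 3.51 (1.91 to 6.88). Oas3 had 16 counts with 4T1 and 6 with EMT6.5, below the level tested. These genes form a family of similar sequences, so their counts of uniquely placed reads are uncertain.

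The remaining antiviral effectors moved the same way. Isg15, a ubiquitin-like modifier, stood at 53.6 CPM with 4T1 and 12.03 CPM with EMT6.5, a ratio of 4.45 (3.43 to 5.86), and Usp18, the protease that removes it and restrains the receptor, at 53.4 CPM with 4T1 and 12.5 CPM with EMT6.5, a ratio of 4.26 (3.29 to 5.57). Rsad2, the radical enzyme viperin, was at 145 CPM with 4T1 and 45.7 CPM with EMT6.5, and its neighbour on chromosome 12 Cmpk2, a mitochondrial nucleotide kinase, at 26.7 CPM with 4T1 and 4.47 CPM with EMT6.5. Ifi44 had a ratio of 4.67 (4.16 to 5.26). Of the large interferon-induced GTPases Mx2 had a ratio of 3.46 (2.60 to 4.67), Gbp3 of 4.56 (3.20 to 6.67), Gbp7 of 2.88 (2.58 to 3.23) and Gbp2 of 2.02 (1.66 to 2.48), the last barely past 2-fold. Mx1 was under the level tested, with 31 counts with 4T1 and 1 with EMT6.5, a ratio of 31.1 (5.18 to 1266), and Zbp1, a sensor of left-handed nucleic acid, had 18 counts with 4T1 and 0 with EMT6.5.

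The transcription factors of the pathway differed in size and direction. Irf7 (ENSMUSG00000025498.15), on chromosome 7 from 141262706 to 141266481 on the minus strand, stood at 122 CPM with 4T1 and 22.7 CPM with EMT6.5, a ratio of 5.36 (4.44 to 6.505), against 37.4 CPM in Bend3 alone. Irf9, at 163 and 83.0 CPM with 4T1 and with EMT6.5, and Stat2, at 139 and 79.6 CPM, stayed under 2-fold, with ratios of 1.96 (1.76 to 2.19) and 1.75 (1.56 to 1.97), in that order. Irf1, which interferon gamma also induces, had a ratio of 1.45 (1.26 to 1.68). Irf3, a factor activated by nucleic acid sensing, went the other way, at 41.0 CPM with 4T1 and 51.4 CPM with EMT6.5, a ratio of 0.798 (0.670 to 0.949).

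At the receptor, Ifnar1 stood at 89.9 CPM with 4T1 and 53.3 CPM with EMT6.5, a ratio of 1.69 (1.46 to 1.95), while Ifnar2 had a ratio of 0.968 (0.848 to 1.10). The kinases Jak1 and Tyk2 had ratios of 0.895 and 0.821. Among sensors of viral RNA, Ifih1 had a ratio of 2.78 (2.19 to 3.56), Tlr3 of 2.18 (1.74 to 2.75), Dhx58 of 2.15 (1.66 to 2.80) and Ddx58 of 1.54 (1.41 to 1.68). Tlr13, a receptor for bacterial ribosomal RNA that is carried on the X chromosome, stood at 48.2 CPM with 4T1 and 15.98 CPM with EMT6.5, a ratio of 3.02, with 0.234 CPM in sorted 4T1 and 0.213 CPM in sorted EMT6.5. These receptors, kinases and sensors, apart from those on the interferon-stimulated list, were chosen after their values were seen.

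The interferons themselves were at or near 0 counts. Ifnb1, Ifng, Ifnk, Ifnz, Ifnl2 and Ifnl3 had 0 counts in both Bend3 libraries, in both sorted tumour libraries and in Bend3 alone. The 14 Ifna genes together had 0 counts with 4T1 and 3 counts with EMT6.5, and 0 in the tumour cells; the Ifna genes are alike in sequence, so reads that fit several of them are not counted. Ifne had 1 count in Bend3 alone and 0 in the other libraries named. A count of 0 allows a level of up to 0.511 CPM with 4T1 and 0.521 CPM with EMT6.5. Socs3, an inhibitor of cytokine signalling, went the other way from Usp18, with 28.8 CPM with 4T1 and 60.1 CPM with EMT6.5, a ratio of 0.478 (0.395 to 0.577), or 0.512 after the carry-over bound.

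Bend3 alone lay between the partners for 31 of the 38 tested members of this list, with the 4T1 co-culture above it and the EMT6.5 co-culture below it except for Ifi27, where the sides were turned round, and for the other 7 the monoculture was lower than both co-cultures. Over the 28 members that were 2-fold higher with 4T1, the median level relative to Bend3 alone was 2.34 with 4T1 and 0.657 with EMT6.5. Both values share the same monoculture library, whose CPM used its library total without a trimmed-mean factor. In 27 of the 28, both sorted tumour libraries held less than Bend3 with 4T1 did, the exception being Oasl1, at 24.4 CPM in sorted 4T1 and 48.9 CPM in sorted EMT6.5 against 9.99 CPM in Bend3 with 4T1. After the carry-over bound all 28 stayed past 2-fold, the lowest, Gbp2, at 2.00, and for 21 the nearer bound of the counting interval itself lay past 2-fold.

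**Figure D3:**
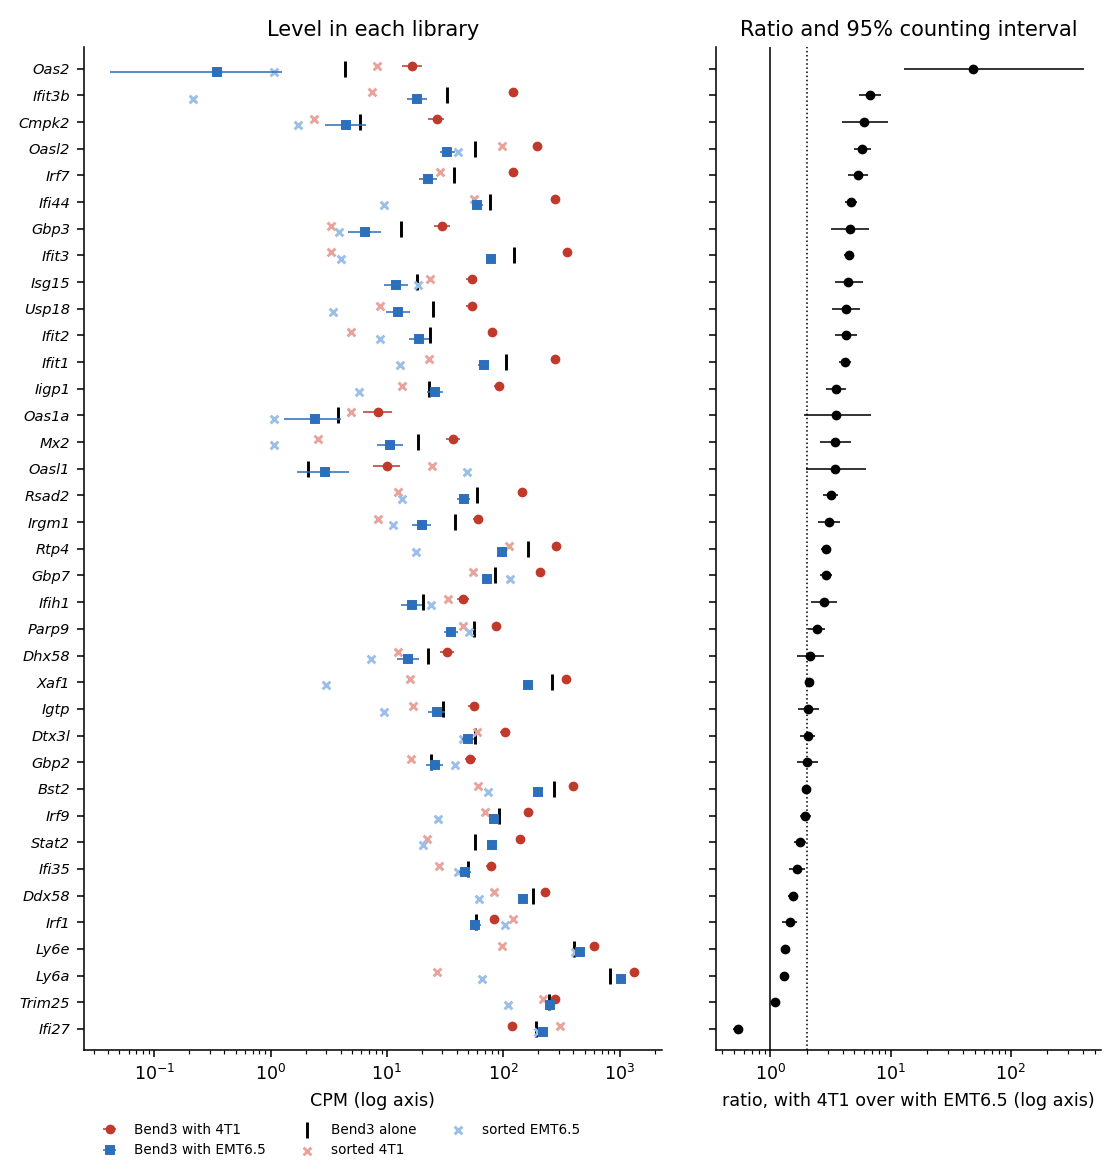
Left, CPM (log axis) of 37 of the 38 tested interferon-stimulated genes in Bend3 with 4T1 (red circles) and Bend3 with EMT6.5 (blue squares) with 95% Poisson intervals, in Bend3 alone (black bars) and in the sorted tumour cells (pale crosses), 1 library each. Right, the ratio with 4T1 over with EMT6.5 and its 95% counting interval (log axis), with lines at 1 and 2; 36 of the 37 drawn lie above 1, and the black bar of Bend3 alone lies between the red and blue symbols for 30.

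The counting interval lay above 1 for 37 of the 38 tested members, but some stayed under 2-fold. Ly6a and Ly6e, abundant surface proteins of Bend3, had ratios of 1.29 (1.25 to 1.34) and 1.33 (1.27 to 1.40), Trim25, a ubiquitin ligase that acts on Ddx58, of 1.09 (1.02 to 1.17), and Bst2, the tetherin that holds budding virus, of 1.97 (1.84 to 2.12). Ifi27 was the 1 member below 1, at 118 CPM with 4T1 and 218 CPM with EMT6.5, a ratio of 0.541 (0.492 to 0.594). Its relative Ifi27l2b went the other way, at 34.4 CPM with 4T1 and 7.22 CPM with EMT6.5, a ratio of 4.77 (3.41 to 6.83), and had 0 CPM in both sorted tumour libraries. Apol9a and Apol9b, near-identical apolipoprotein L genes whose promoter windows share a run of 278 bases, had ratios of 4.16 and 4.00 and are uncertain, since reads that fit both are left out.

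Genes of class I antigen presentation, the machinery that cuts, transports and displays peptides, were higher with 4T1 in a smaller measure. Of 17 on the list 11 were tested, 4 were at least 2-fold higher and 0 lower, against 2.18% higher and 1.26% lower over all genes, and the median ratio was 1.60. B2m, the light chain of class I molecules, stood at 3058 CPM with 4T1 and 1495 CPM with EMT6.5, a ratio of 2.05 (1.99 to 2.099). H2-K1, a class I heavy chain, stood at 92.1 CPM with 4T1 and 29.7 CPM with EMT6.5, a ratio of 3.10 (2.61 to 3.70), while H2-D1 had a ratio of 1.16 (1.09 to 1.23); H2 genes are alike in sequence, so their shares of reads are uncertain. Psmb9, an immunoproteasome subunit, had a ratio of 2.30 (1.57 to 3.43), Erap1, a peptide trimming enzyme, of 2.05 (1.62 to 2.62), Tapbp of 1.65 and the transporter subunits Tap1 and Tap2 of 1.60 and 1.01. The tumour cells express these genes strongly, B2m at 2170 CPM in sorted 4T1 and 3357 CPM in sorted EMT6.5. After the carry-over bound B2m was at 1.997 and the other 3 stayed past 2-fold. The class II genes Cd74, with 1 count with 4T1 and 5 with EMT6.5, and H2-Aa, with 16 and 9 in the same order, were too low to compare.

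**Figure D4:**
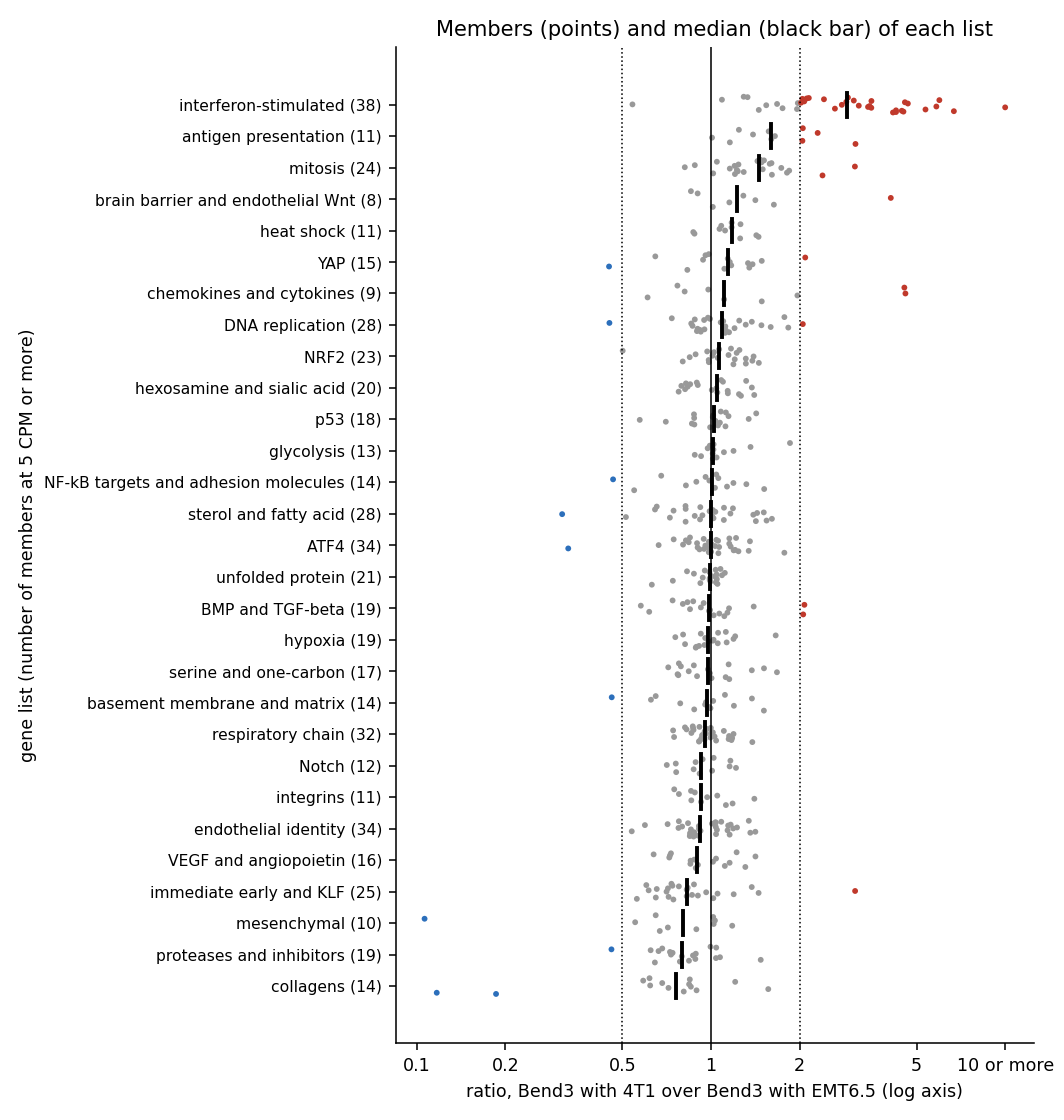
Ratio of each tested member (points, log axis) and median ratio (black bar) for the 29 gene lists with at least 5 tested members, Bend3 with 4T1 over Bend3 with EMT6.5; red points are at least 2-fold higher and blue points at least 2-fold lower, and dotted lines mark 2-fold. The interferon-stimulated list has the highest median, 2.90, followed by antigen presentation at 1.60 and mitosis at 1.46, and collagens have the lowest, 0.763, all before the carry-over bound.

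Chemoattractants were mixed and mostly low. Cxcl2, a neutrophil attractant, had 96 counts with 4T1 and 21 with EMT6.5, a ratio of 4.58 (2.84 to 7.74), and its relative Cxcl1 stood at 45.6 CPM with 4T1 and 23.2 CPM with EMT6.5, a ratio of 1.97 (1.59 to 2.44). Cxcl10, an interferon-induced T cell attractant, had 35 counts with 4T1 and 15 with EMT6.5, below the level tested. Tslp had a measured ratio of 4.54, but sorted 4T1 cells held 276 CPM of it and the ratio after the carry-over bound was 1. Of 9 tested chemokines and cytokines 2 were 2-fold higher and 0 lower, against 2.18% higher and 1.26% lower over all genes. Both, Cxcl2 and Tslp, reached a mean of 5 CPM only through the library with 4T1. On the list of 25, 16 did not reach 5 CPM.

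Adhesion molecules through which endothelium binds circulating cells did not go one way. Vcam1 stood at 479 CPM with 4T1 and 316 CPM with EMT6.5, a ratio of 1.52 (1.43 to 1.61). Selp, P-selectin, stood at 28.1 CPM with 4T1 and 51.2 CPM with EMT6.5, a ratio of 0.548 (0.450 to 0.666). Sele, E-selectin, had 3 counts with 4T1 and 21 with EMT6.5, a ratio of 0.143 (0.0273 to 0.480), and Icam1 had 2 and 4 counts in the same order. Of 14 tested NF-kB targets and adhesion molecules 0 were 2-fold higher and 1 was 2-fold lower, against 2.18% and 1.26% of all genes. The lower one was Tnfaip3, an NF-kB inhibitor, with 32 counts with 4T1 and 69 with EMT6.5. The median ratio of that list was 1.01, and Nfkbia, a standard readout of the pathway, had a ratio of 1.03 (0.976 to 1.09).

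Immediate early genes and Krüppel-like factors, which respond within minutes to growth factors and flow, lay mostly below 1 by small ratios. Of 25 tested, 19 were below 1 and 6 above, and the median ratio was 0.827. In this list 1 was 2-fold higher and 0 lower, against 2.18% and 1.26% of all genes. Fosb stood at 216 CPM with 4T1 and 385 CPM with EMT6.5, a ratio of 0.560 (0.522 to 0.600), and Fos at 308 CPM with 4T1 and 413 CPM with EMT6.5, a ratio of 0.745 (0.701 to 0.793). Klf2, the flow-responsive factor of quiescent endothelium, stood at 1359 CPM with 4T1 and 1903 CPM with EMT6.5, a ratio of 0.714 (0.694 to 0.735). Dusp4, a phosphatase of MAP kinases, was the 1 gene past 2-fold, at 25.5 CPM with 4T1 and 8.25 CPM with EMT6.5, while Dusp5 and Dusp1 had ratios of 0.614 and 0.706.

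Mitotic genes were mostly above 1. Of 24 tested, 22 were above 1, the median ratio was 1.46, and 2 were 2-fold higher: Mki67, the proliferation marker, at 81.4 CPM with 4T1 and 34.0 CPM with EMT6.5, a ratio of 2.39 (2.02 to 2.84), and Kif20a, a kinesin of cell division, at 27.0 CPM with 4T1 and 8.76 CPM with EMT6.5, a ratio of 3.09 (2.24 to 4.32). Over all genes 2.18% were 2-fold higher and 1.26% lower. Top2a stood at 343 CPM with 4T1 and 213 CPM with EMT6.5. Tumour cells hold more of these RNAs, with a list sum of 5592 CPM in sorted 4T1 and 3376 CPM in sorted EMT6.5 against 1613 CPM in Bend3 with 4T1 and 1122 CPM in Bend3 with EMT6.5. After the carry-over bound the list median was 1.30, and Mki67 and Kif20a stayed past 2-fold at 2.19 and 2.95. DNA replication genes had a median ratio of 1.09, with 1 of 28 higher, Pole, and 1 lower, Ccne2. The ratio of Pole, 2.05, became 1.97 after the carry-over bound, which left 0 higher.

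Among genes lower with 4T1, 65.9% had a mean under 10 CPM, where 13.2% of all genes passed 2-fold in one direction or the other, against 0.753% at 50 CPM and more. At 20 CPM or more 14 genes, 0.202% of 6941, were 2-fold lower. The furthest was Atp2b4, a calcium pump of the cell membrane, with 36 counts with 4T1 and 211 with EMT6.5, a ratio of 0.171 (0.117 to 0.244); sorted EMT6.5 cells held 55.2 CPM of it and Bend3 alone 1.67 CPM, and the ratio after the carry-over bound was 0.179. Eln, the elastin of elastic fibres, stood at 55.8 CPM with 4T1 and 121 CPM with EMT6.5, a ratio of 0.460 (0.402 to 0.525), with 0 CPM in sorted 4T1 and 0.213 CPM in sorted EMT6.5. Pde4b, which breaks down cyclic AMP, stood at 66.5 CPM with 4T1 and 149 CPM with EMT6.5, a ratio of 0.445 (0.394 to 0.502). Cmklr1, the chemerin receptor, at 33.2 and 75.4 CPM with 4T1 and with EMT6.5, and the sulfotransferase Chst1, at 35.1 and 78.4 CPM, had ratios of 0.441 and 0.448. Nr4a2, an orphan nuclear receptor induced early by many stimuli, had a ratio of 0.397 (0.310 to 0.504), and Chsy1, of chondroitin synthesis, of 0.431 (0.375 to 0.495). The remaining genes of the 15 lowest were Hnrnpf, Hsd17b7, Mettl21a, Fabp5, Trap1, Zfp41, Tmem50b and Socs3, with ratios of 0.282 to 0.478.

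Collagens had the lowest list median as measured, 0.763 over 14 tested, with 12 below 1; after the carry-over bound it was 0.856, above the 0.830 of the immediate early and KLF list. The main basement membrane chains moved little, Col4a1 at 1518 CPM with 4T1 and 1878 CPM with EMT6.5, a ratio of 0.808 (0.786 to 0.831), and Col4a2 with a ratio of 0.893. Col13a1, a transmembrane collagen, stood at 146 CPM with 4T1 and 248.5 CPM with EMT6.5, a ratio of 0.588 (0.540 to 0.641), with 0.213 CPM in sorted EMT6.5. The 2 members past 2-fold, Col1a1 and Col1a2, had 18 and 7 counts with 4T1 and 97 and 60 counts with EMT6.5. EMT6.5 cells held them at 777 and 985 CPM, against 6.09 and 5.39 CPM in 4T1, and both ratios were 1 after the carry-over bound, as was that of Acta2, smooth muscle actin. Among other matrix lists, 1 of 14 basement membrane and matrix genes was past 2-fold, Eln, and Lama4, a laminin chain of vessel walls, stood at 184 CPM with 4T1 and 122 CPM with EMT6.5, a ratio of 1.51 (1.38 to 1.67). Of 19 proteases and inhibitors 1 was 2-fold lower, the metalloprotease Adamts9, with 49 counts with 4T1 and 107 with EMT6.5, and Adamts5 had a ratio of 0.624 (0.589 to 0.660). Of 11 integrins 0 passed 2-fold. Over all genes 3.44% passed 2-fold either way. Of 6 fibroblast and pericyte markers, Dcn, Lum and Rgs5 were at 0 counts in both Bend3 libraries. Pdgfra had 32 counts with 4T1 and 23 with EMT6.5, or 5.51 and 3.95 CPM, against 1.67 CPM in Bend3 alone. Pdgfrb had 1 count with 4T1 and 16 with EMT6.5. Sorted EMT6.5 held 85.8 CPM of Pdgfrb, and its ratio was 0.985 after the carry-over bound. The sixth marker is Col1a1.

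Of the 10 epithelial markers, those detected were higher with 4T1. Cdh1 had 27 counts with 4T1 and 0 with EMT6.5, and Epcam 12 and 0 in the same order. Sorted 4T1 held them at 451 and 196 CPM, and their carry-over shares were 1.02% and 1.04%. Krt18 had 85 counts with 4T1 and 24 with EMT6.5, and a ratio of 1 after the carry-over bound, with 825 CPM in sorted 4T1 and 383 CPM in sorted EMT6.5. Krt7, the gene with the highest carry-over share, had 93 counts with 4T1 and 6 with EMT6.5, a ratio of 15.5 (6.87 to 43.4), or 8.09 after the bound. Sorted 4T1 held 229 CPM of it and sorted EMT6.5 held 124 CPM. Of the genes 2-fold higher in Bend3 with 4T1 that had a mean of at least 5 CPM over both sorted tumour libraries, 46 of 159, or 28.9%, were also 2-fold higher in sorted 4T1 than in sorted EMT6.5, against 9.65% of all 9099 such genes. Of the genes 2-fold lower, 18 of 93, or 19.4%, were 2-fold lower in sorted 4T1 than in sorted EMT6.5, against 10.4% of all, and 16 of 93, or 17.2%, were 2-fold higher there, against 9.65% of all. Whether carried-over RNA accounts for these shares was not tested beyond the bound.

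**Figure D5:**
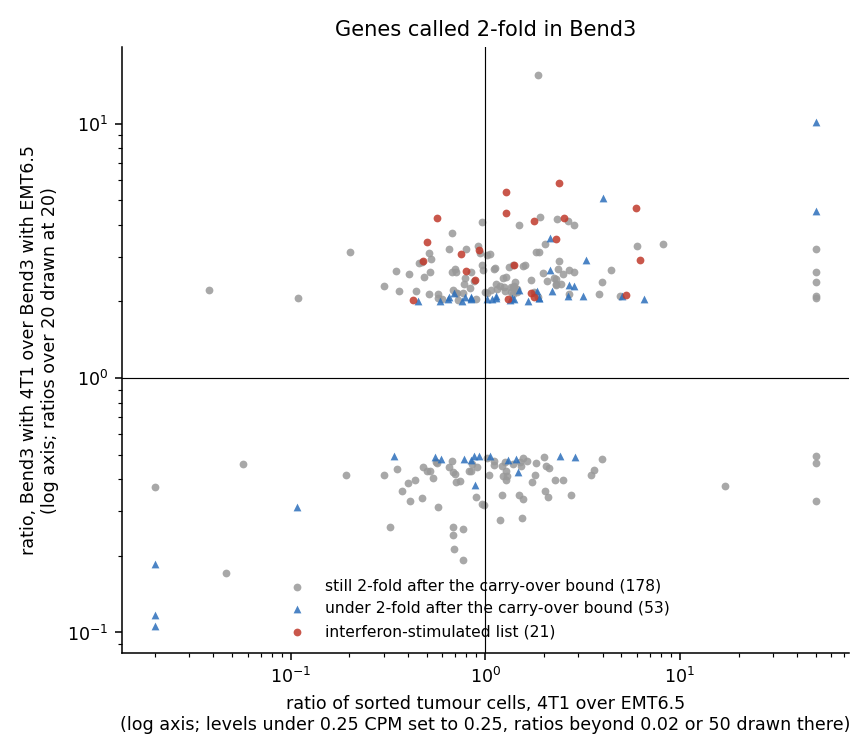
Ratio in Bend3, with 4T1 over with EMT6.5 (vertical, log axis), against the ratio of the sorted tumour cells, 4T1 over EMT6.5 (horizontal, log axis), for the 252 genes past 2-fold in Bend3 with a mean of at least 5 CPM over both tumour libraries; extreme ratios are drawn at the limits given on the axes. The 53 genes under 2-fold after the carry-over bound (blue triangles) include those at the lower left that EMT6.5 holds, and the 21 interferon-stimulated genes (red) spread over both sides of equality between the tumour lines.

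Endothelial identity genes differed by small ratios between the partners. Of 36 genes 34 were tested and 0 were 2-fold apart, against 3.44% of all genes either way. The median ratio was 0.916 (range 0.538 to 1.42). Small differences were common, with the counting interval wholly above 1 for 11 of the 34 and wholly below 1 for 16. Pecam1 stood at 3022 CPM with 4T1 and 3464 CPM with EMT6.5, a ratio of 0.873 (0.855 to 0.891), Cdh5, the cadherin of endothelial junctions, had a ratio of 0.847 and the VEGF receptor Kdr of 0.903. The furthest were Vwf, von Willebrand factor, at 12.6 CPM with 4T1 and 23.4 CPM with EMT6.5, and Plvap, of the diaphragms of fenestrae, at 294 CPM with 4T1 and 493 CPM with EMT6.5, a ratio of 0.596 (0.561 to 0.633). In the other direction the junction protein Cldn5 had a ratio of 1.42 (1.31 to 1.53) and the sialomucin Emcn of 1.36. Apln, the ligand apelin of sprouting endothelium, stood at 1136 CPM with 4T1 and 802 CPM with EMT6.5, a ratio of 1.42. Of 12 Notch and 16 VEGF and angiopoietin genes tested, 0 passed 2-fold, against the same 3.44% of all genes. Lists of this size would hold few such genes at that share. Their median ratios were 0.926 and 0.895. Of 8 brain barrier and endothelial Wnt genes 1 passed, Apcdd1, a Wnt inhibitor, with 53 counts with 4T1 and 13 with EMT6.5. Apcdd1 reached a mean of 5 CPM only through the library with 4T1.

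The enzymes of serine synthesis, the subject of the wider study, differed little in Bend3. Phgdh stood at 32.7 CPM with 4T1 and 28.4 CPM with EMT6.5, a ratio of 1.15 (0.932 to 1.43). Psat1 had a ratio of 1.00 (0.912 to 1.11), Psph of 1.12 (0.991 to 1.27), Shmt2 of 0.897 (0.825 to 0.974) and Mthfd2 of 0.992 (0.921 to 1.07). Of 17 serine and one-carbon genes tested 0 passed 2-fold, and the furthest were Mthfd2l at 1.68 and Mtr at 0.716. Sterol and fatty acid genes had 1 of 28 past 2-fold, Hsd17b7, which was lower. Of the stress and metabolism lists, 0 of 21 unfolded protein genes, 0 of 11 heat shock genes, 0 of 18 p53 targets, 0 of 23 NRF2 targets, 0 of 19 hypoxia genes and 0 of 32 respiratory chain genes passed 2-fold, against 3.44% of all genes either way, so lists of this size would hold few such genes at that share. Smaller differences were present: the NRF2 list had 11 of 23 counting intervals wholly above 1 and 3 wholly below, with a median of 1.07, and the heat shock list had a median of 1.18. Of 34 ATF4 targets 1 passed, Cth, which was lower at 16 counts with 4T1 and 49 with EMT6.5, and Ddit3 had a ratio of 1.78 (1.61 to 1.96). Of 13 glycolysis genes and 20 hexosamine and sialic acid genes 0 passed 2-fold. Of 15 YAP pathway genes Axl, a receptor kinase, was higher and came to 1 after the carry-over bound, and the factor Tead4 was lower, with 71 counts with 4T1 and 158 with EMT6.5. Of 19 BMP and TGF-beta genes 2 were higher, the ligand Tgfb2, at 46.0 CPM with 4T1 and 22.3 CPM with EMT6.5, and the inhibitor Smad7 at 85 and 41 counts in the same order, whose ratio of 2.08 became 1.87 after the carry-over bound, under 2-fold.

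The overall spread of the pair exceeded counting error. For 39.9% of the tested genes the 95% counting interval of the ratio left out 1, although 87.1% of the genes lay within 1.5-fold. Replicate pairs elsewhere in the series, from deeper libraries of other cells, gave 10.7% to 18.6% for 3 pairs of 4T1 shSCR libraries and 19.6% to 33.4% for 3 pairs of MDA-MB-231 control libraries. In those pairs 0 to 1 and 1 to 5 genes at 5 CPM or more were 2-fold apart. They are cells handled and counted differently, so they do not give the spread between 2 Bend3 dishes. Median ratios of the 20 chromosomes lay between 0.976 and 1.04.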

How the data were processed

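Raw gene counts were deposited by the authors as 1 table per library, for which the submitters' processing notes name HTSeq, the aligner HISAT2 (2.1.0), the trimmer Trim Galore (0.5.0) and the build GRCm38; per the labels' protocols, stranded mRNA libraries were read as 50 bp single ends. For the gene annotation and the strand setting of the counting, the sources used here give nothing. The 5 summary lines of each table were left out of library totals.

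The members and lists were chosen with earlier results of these data known. CPM used library totals times TMM factors from edgeR 4.0.16 in R 4.3.3, computed on the 2 Bend3 co-culture libraries (0.989 and 1.01). For Bend3 alone and the sorted tumour libraries CPM used library totals only. A gene was compared when its mean over both libraries reached 5 CPM, and called when at least 2-fold apart. Some genes reached that mean only through the library where they were higher. Each ratio has a 95% exact counting interval (Clopper-Pearson, conditional on the sum of both counts), and each CPM in the plots an exact Poisson one. The counts carry no molecular identifiers, so intervals and the floor of 3 counts cover counting error only. Replicate pairs elsewhere were 3 shSCR and 3 MDA-MB-231 control libraries; the table's SCR columns were read as these controls. The table that holds the shSCR libraries has another 10 columns, which matched no sample label and were not used.

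The genes named were 14 core genes, the 15 highest and 15 lowest by the interval bound nearest 1 (mean at least 10 CPM, a symbol that is no Gm or Rik name, at least 1.5-fold after the carry-over bound), up to 4 members of each of 32 lists with the largest folds, and the genes that set the carry-over shares. Other genes named were chosen after their values were seen. Gene positions came from GENCODE vM21, which held 99.8% of the gene identifiers when version suffixes were ignored, and promoter windows from RefSeq, build GRCm38.p6. The ratio and its interval were tested on simulated data. Alternatives were library totals, DESeq2 1.42.0 size factors, other filters and fold thresholds, and subtraction of carried-over RNA. The values of 1 member of the interferon-stimulated list, which its counts and medians include, are not reported here.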

Additional observations from a re-analysis of the deposited data

How the results depend on the processing

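The number of genes 2-fold apart depended on the filter and the threshold: 217 higher and 126 lower became 826 and 610 at a mean of at least 1 CPM, 70 and 14 at 20 CPM, 2975 and 2905 with no filter, 696 and 586 at 1.5-fold, 59 and 26 at 3-fold, and 70 and 25 when the nearer bound of the counting interval had to pass 2-fold. Library totals, DESeq2 size factors and both subtractions of carried-over RNA kept each count within 1.5 times. Of 636 finite ratios of named genes under other scalings or subtractions 622 stayed within their counting interval and 14 left it. These leave out Axl, Col1a2, Krt7 and Krt18 after subtraction at the median, which removed their whole level with EMT6.5 and left no finite ratio. At the carry-over bound a ratio that would have crossed 1 was set to 1, so a change of direction could not show there. Under the other settings, of the ratios past 2-fold only Col1a2, 0.117 as measured, did not keep its direction. The median carry-over exceeded its level with EMT6.5, which left no finite ratio. Among those under 2-fold, Itga2 crossed 1 to 0.883 after subtraction at the median. Psat1 crossed to 0.997 there and to 0.982 with library totals, all within their intervals. Tslp, Cx3cl1, Acta2, Axl, Col1a1, Col1a2, Scd1 and Krt18 came to 1 after the carry-over bound. All 145 medians of lists with at least 5 tested members, and all 12 carry-over shares, stayed within their interval. No paired analysis was possible because each Bend3 co-culture has 1 library. Depth limits low genes: at 5 to 10 CPM 13.2% of genes were 2-fold apart, against 0.753% at 50 CPM and more.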
